A study of Sus scrofa with 6 samples.

Results

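MSTRG.9572.1 and MSTRG.9573.1 were neighbouring lncRNA transcripts on chromosome 2 on the same strand, chosen by their mean FPKM in psoas major muscle (PMM), which was the highest in the authors' lncRNA table. The table holds these 2 transcripts and 4044 others. RNA was sequenced from longissimus dorsi muscle (LDM), a glycolytic muscle, and from PMM, an oxidative muscle, of female Qingyu pigs (Qinyu in the labels) at 178 days of age. There were 3 libraries per muscle. All pigs were housed on 1 farm and fasted before slaughter, with no other treatment named. The labels number the libraries of a muscle as replicates, and which pig gave each library is not stated.

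A long noncoding RNA is a transcript with little or no capacity to encode protein. Many are made at low levels, while a few reach the level of strongly expressed genes. The abundant ones are often kept in the nucleus, where some act as scaffolds for proteins or take part in the processing of other RNAs. In skeletal muscle, several lncRNAs are known to act in the differentiation of muscle precursor cells. Glycolytic and oxidative muscles differ in fibre type, mitochondrial content and fuel use, and the study compared the noncoding RNAs of both kinds of muscle. The authors' table gives neither of these transcripts a gene name, so no function can be assigned to them here.

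Behind the FPKM (fragments per kilobase of transcript and per sequenced fragments of the library) stood 7.24 to 8.78 gigabases per library, with no clear difference between muscles (exact permutation test, two-sided, p = 0.6). The table holds noncoding transcripts only. Of 13 genes that mark muscle fibres, fat, immune, endothelial or stromal cells, 2 had a row, SLN and PDGFRB, so the labelled tissue could not be checked against its markers. LDM replicate 2 stood apart from the other libraries through MSTRG.17109.1, a transcript over the RNA of nuclear RNase P, with 5825 FPKM there and 3.71 to 15.3 elsewhere. Values that rest on that library are given with and without it.

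The pair lay on the minus strand in a block of 5 transcript models. In the direction of transcription, MSTRG.9573.1 came first, at chr2:5943087-5945430, with 2 exons and 1718 bases of transcript after 626 bases of intron were removed. Its second isoform model, MSTRG.9573.2, had the same 3′ boundary and began 35 bases later, with 3 exons and 1492 bases. MSTRG.9572.1 followed after a gap of 396 bases, at chr2:5941294-5942690, as 1 exon of 1397 bases. After a further 836 bases came MSTRG.9569.1, 1 exon of 1074 bases, and after another 269 bases MSTRG.9570.1, 1 exon of 235 bases. The 5 models together spanned 6551 bases, from 5938880 to 5945430, and all were classed as intergenic. Whether they are separate transcripts or pieces of 1 longer RNA was not tested, since the table gives no reads across the gaps.

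**Figure D1:**
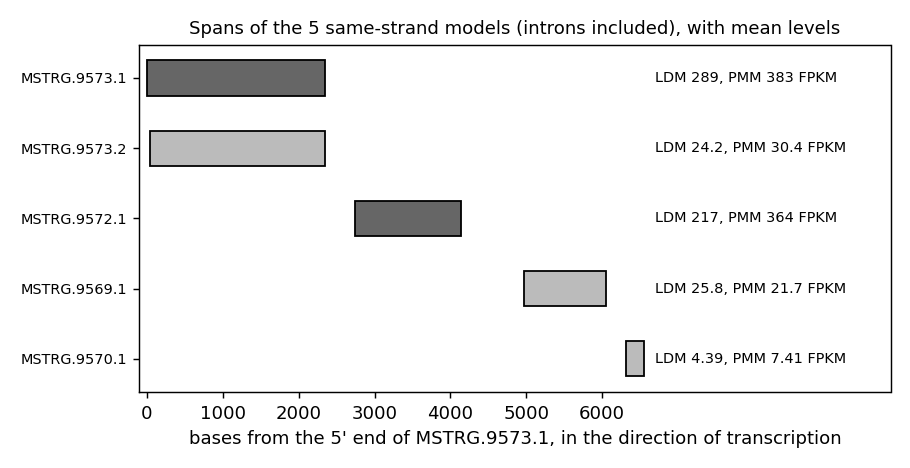
The 5 same-strand models drawn to scale by their span in bases from the 5′ end of MSTRG.9573.1, introns included; dark bars are the pair, light bars the other 3 models, and the text gives the mean FPKM of 3 libraries per muscle. The pair reached 217 to 383 FPKM and the other models 4.39 to 30.4.

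The positions are those of the authors' table. The methods name Sscrofa11.1, but of 311 transcripts that the table places in an intron of a gene with a symbol, 1 fell inside that gene in the RefSeq gene table of Sscrofa11.1. On chromosome 2 it was 0 of 20. The table's positions were therefore not matched to that assembly. The nearest row on the chromosome with a gene name, MSTRG.9595.1 in an intron of EHD1, a gene of membrane recycling, lay 498403 bases away.

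Both transcripts had passed the authors' filters on coding potential, in which lower scores mean less coding potential. MSTRG.9572.1 had a CPC score of -1.32, lower than most, with 9.42% of all transcripts below it. Its CNCI score of -0.00041 was close to the upper limit of 0, and 84.4% of transcripts were below it. MSTRG.9573.1 was ordinary in both scores, with a CPC score of -1.12 and a CNCI score of -0.0422. In length both were near the middle of the table, with 55.9% of transcripts shorter than MSTRG.9572.1 and 63.0% shorter than MSTRG.9573.1. A single exon, as in MSTRG.9572.1, was listed for 88.5% of transcripts.

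MSTRG.9573.1 was listed at 394, 252 and 220 FPKM in LDM replicates 1, 2 and 3 and at 537, 284 and 328 FPKM in PMM replicates 1, 2 and 3. The LDM libraries averaged 289 ± 92.8 FPKM and the PMM libraries 383 ± 135 (mean ± SD, n = 3). Replicate 1 was the highest library of each muscle, and LDM replicate 1 lay above PMM replicates 2 and 3, so the muscles overlapped. MSTRG.9572.1 was listed at 277, 204 and 170 FPKM in LDM replicates 1, 2 and 3 and at 496, 266 and 330 FPKM in PMM replicates 1, 2 and 3. The LDM libraries averaged 217 ± 54.8 FPKM and the PMM libraries 364 ± 119 (mean ± SD, n = 3). Here too replicate 1 was the highest of each muscle, and the only overlap was LDM replicate 1 above PMM replicate 2.

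**Figure D2:**
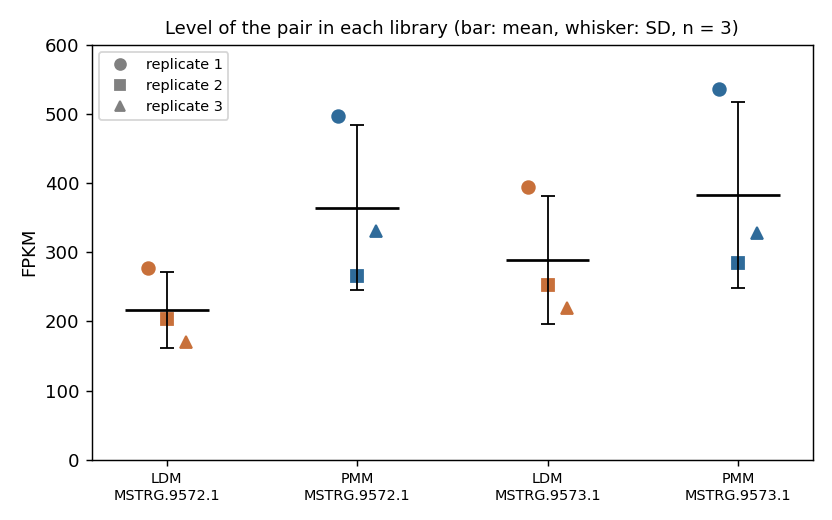
FPKM of MSTRG.9572.1 and MSTRG.9573.1 in each library, LDM in orange and PMM in blue, with the mean as a bar and the SD as a whisker (n = 3). Replicate 1 is the highest point in all 4 columns, and the points of the muscles overlap for both transcripts.

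On the scale of log2(FPKM + 1), the difference of the means (LDM minus PMM) was -0.72 (standard error 0.36) for MSTRG.9572.1 and -0.40 (standard error 0.38) for MSTRG.9573.1, from limma fitted on 1721 transcripts. These differences are a description with no test, because the level in PMM chose the pair. The median difference of all 1721 transcripts was -0.01. In libraries of the same replicate number, PMM was higher for both transcripts in all 3 numbers. PMM was 1.79, 1.31 and 1.94 times LDM for MSTRG.9572.1 in numbers 1, 2 and 3, and 1.36, 1.13 and 1.49 times for MSTRG.9573.1. Without PMM replicate 1 the log2 differences shrank to -0.48 and -0.13, and without LDM replicate 1 they were -0.91 and -0.64. Scaling by median-of-ratios factors gave -0.46 and -0.13, beside a median of all transcripts of 0.09. In bulk tissue, a change in the number of cells that make an RNA and a change in RNA per cell cannot be told apart.

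In mean FPKM in PMM, MSTRG.9573.1 ranked first and MSTRG.9572.1 second of all transcripts. Just below them stood MSTRG.18512.2 at 272 FPKM, a transcript with a junction in common with the gene of sarcolipin (SLN), which inhibits the calcium pump of muscle. It was followed by MSTRG.14595.1 opposite ssc-mir-4332 at 255 and by MSTRG.17390.5 at 156, a transcript over SCARNA13, one of the small RNAs of Cajal bodies. The lower member of the pair was 1.34 times the next transcript. The median transcript had a mean of 0.453 FPKM in PMM.

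Levels in LDM did not enter the choice, and there MSTRG.9573.1 ranked 4 and MSTRG.9572.1 ranked 7 by mean FPKM. Above both were MSTRG.17109.1, whose mean of 1946 FPKM rests on LDM replicate 2 alone, MSTRG.14595.1 at 338 FPKM and MSTRG.17390.3 over SCARNA13 at 321 FPKM. Within single libraries the ranks ran from 1 to 4 for MSTRG.9573.1 and from 1 to 6 for MSTRG.9572.1. MSTRG.9573.1 ranked 3, 4 and 3 in LDM replicates 1, 2 and 3 and 1, 3 and 2 in PMM replicates 1, 2 and 3. MSTRG.9572.1 ranked 5, 6 and 4 in LDM and 2, 4 and 1 in PMM. In every library both were thus among its 6 most abundant lncRNA transcripts, and 5 to 7 transcripts per library reached 100 FPKM.

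**Figure D3:**
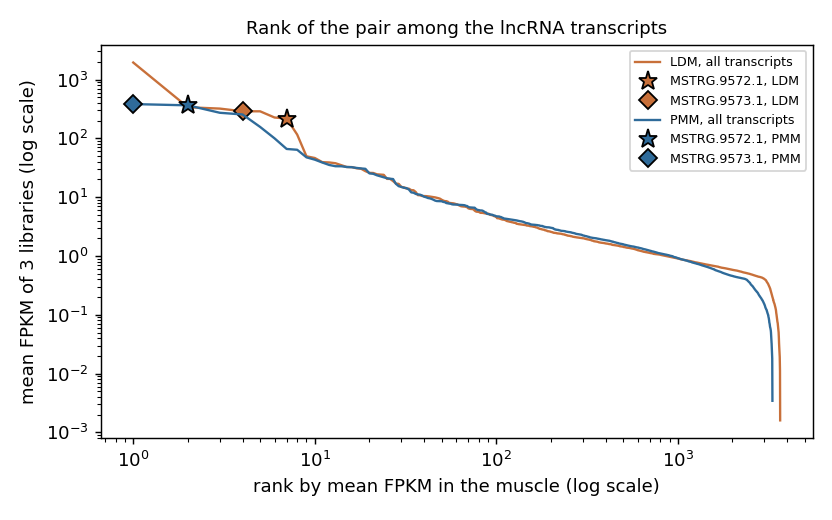
Mean FPKM of 3 libraries against rank for all transcripts in LDM (orange) and PMM (blue), both axes on a log scale; stars mark MSTRG.9572.1 and diamonds MSTRG.9573.1. The pair holds ranks 1 and 2 in PMM and ranks 4 and 7 in LDM, on the steep upper end of both curves.

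A large part of the lncRNA signal lay in this pair. Together both transcripts held 12.5%, 3.46% and 8.58% of the summed FPKM of the table in LDM replicates 1, 2 and 3. In PMM replicates 1, 2 and 3 they held 17.7%, 9.82% and 13.8%. The share averaged 8.17% ± 4.52 over LDM libraries and 13.8% ± 3.95 over PMM libraries (mean ± SD, n = 3), with LDM replicate 1 above PMM replicate 2. The low share in LDM replicate 2 moved with MSTRG.17109.1, and without that transcript in the sum it was 6.21%, still the lowest of the 6 libraries. Without LDM replicate 2 the mean share of LDM was 10.5%. Counted as bases of read coverage, which are not divided by length, the pair held 7.13% ± 3.50 of the lncRNA bases of LDM libraries and 10.5% ± 3.12 of those of PMM libraries (mean ± SD, n = 3). Of all bases behind the FPKM values, MSTRG.9573.1 took 0.0377 to 0.0922% and MSTRG.9572.1 0.0238 to 0.0694%.

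**Figure D4:**
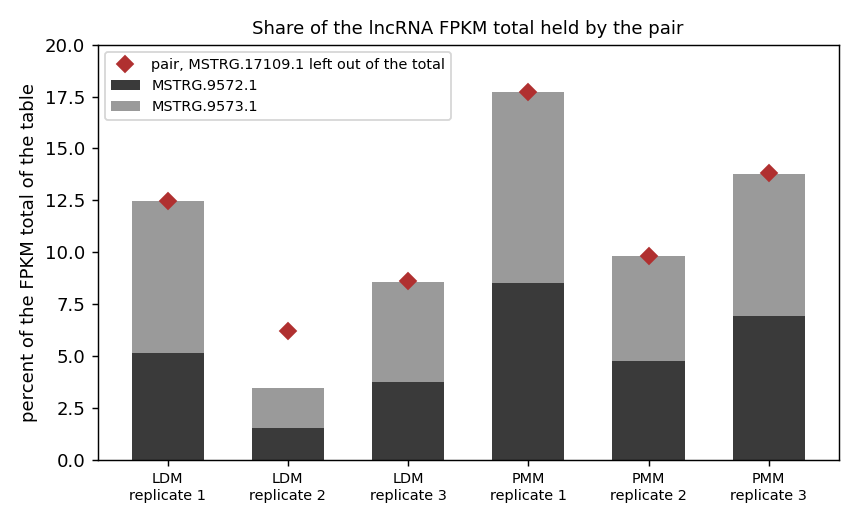
Percent of the summed FPKM of the table held by MSTRG.9572.1 (dark) and MSTRG.9573.1 (light) in each library; red diamonds give the share of the pair when MSTRG.17109.1 is left out of the sum. The pair holds 3.46 to 17.7% of the sum, and the diamond departs from the bar in LDM replicate 2, where it is at 6.21%.

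The levels of both transcripts rested on deep coverage. MSTRG.9572.1 was covered 1474 to 3768 times per base and MSTRG.9573.1 1825 to 4073 times. This corresponds to at least 6862 fragments of 300 sequenced bases for MSTRG.9572.1 and 10449 for MSTRG.9573.1 in any library. Counting error was thus small beside the spread between libraries, which was 2.92 times from the lowest to the highest library for MSTRG.9572.1 and 2.44 times for MSTRG.9573.1. Intervals of this kind cover counting error only, since reads amplified by PCR are not independent molecules. Among 34 transcripts with a mean of at least 10 FPKM in each muscle and above 0 in all 6 libraries, the SD of log2 FPKM over the 6 libraries had a median of 0.40. It was 0.54 for MSTRG.9572.1, with 26 of the 34 below it, and 0.47 for MSTRG.9573.1, with 22 below it.

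The ratio of MSTRG.9572.1 to MSTRG.9573.1 within a library differed between the muscles by more than the spread of the replicates. It was 0.704, 0.808 and 0.775 in LDM replicates 1, 2 and 3, so that MSTRG.9572.1 was clearly the lower of the pair there. In PMM replicates 1, 2 and 3 it was 0.925, 0.936 and 1.01, so that both were near the same level. The ratio is of FPKM, per length, and scaling between libraries cancels in it. It averaged 0.762 ± 0.0532 over LDM libraries and 0.956 ± 0.0448 over PMM libraries (mean ± SD, n = 3), with every LDM library below every PMM library. The difference (LDM minus PMM) of the log2 ratio was -0.33 (two-sided exact permutation test, p = 0.1, which is the lowest value possible with 3 libraries per muscle). Of 5 ratios within the block that were compared this way, 3 reached this p. After Benjamini-Hochberg adjustment over the 5, each of the 3 had p = 0.167 in the exact permutation test. Of the 3, 1 is nearly the same ratio, with both MSTRG.9573 models in the denominator. Another is the ratio of MSTRG.9569.1 to MSTRG.9572.1. All 5 ratios hold a member of the pair. The level in PMM chose the pair, so these p-values are given as a description only. Shares of the block's bases were compared outside this adjustment (pair, p = 0.2, MSTRG.9569.1, p = 0.3, exact permutation tests). The pair makes up most of those bases, so these p-values too are a description.

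The counting intervals of single libraries cover counting error only and are no test between the muscles. The highest LDM ratio, in replicate 2, had a 95% exact (Clopper-Pearson) interval of 0.783 to 0.833, and the lowest PMM ratio, in replicate 1, one of 0.907 to 0.943. Without any 1 library the difference stayed between -0.37 and -0.27 on the log2 scale. With the bases of both MSTRG.9573 models in the denominator it was -0.32, and again the muscles did not overlap. With libraries paired by replicate number, the ratio was lower in LDM in 3 of 3 pairs (two-sided exact sign-flip test, p = 0.25, which is the lowest value possible with 3 pairs). This too is a description, since the level in PMM chose both terms of the ratio.

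Ratios that did not overlap between the muscles were not rare among neighbouring transcripts. A set of 25 pairs was drawn up after the values were seen, made of adjacent transcripts on 1 strand with different gene IDs, at most 1000 bases apart and above 0 FPKM in all 6 libraries. The ratio did not overlap between the muscles in 6 of them (24.0%). Among these were MSTRG.9572.1 with MSTRG.9573.1 and also MSTRG.9569.1 with MSTRG.9572.1, so this share comes in part from the same block. By the size of the difference this pair was number 10 of 25, so larger shifts occurred among other neighbours, all of them with a less abundant member. By how constant the ratio was over the 6 libraries it was number 4, with an SD of the log2 ratio of 0.20 against a median of 0.43. The pair was also far more abundant than the others, with at least 291 FPKM on average in both transcripts. The less abundant transcript of any other pair averaged at most 23.8 FPKM, a value of MSTRG.9569.1 beside MSTRG.9572.1. Counting error weighs more on the ratios of scarce transcripts, so neither these SDs nor the sizes of the differences are compared at a like level.

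**Figure D5:**
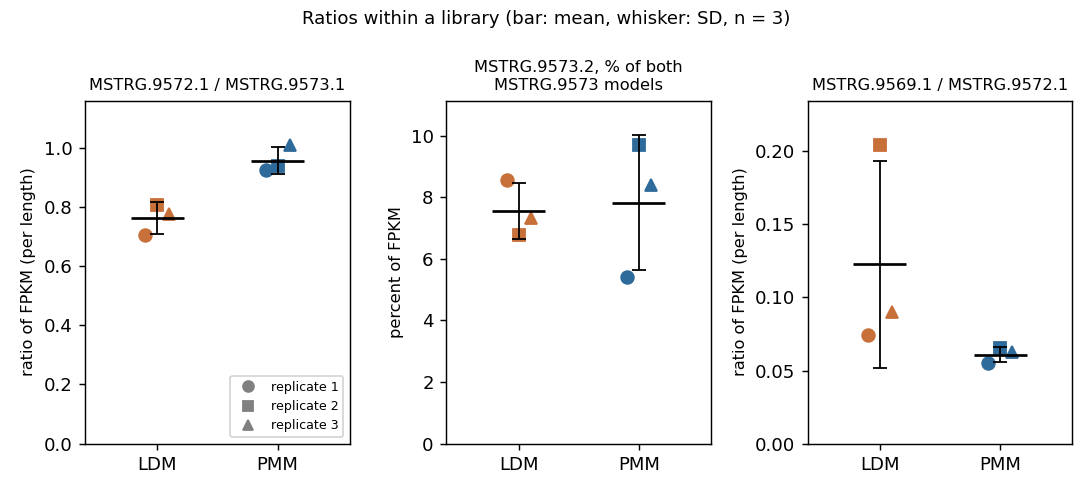
Ratios within each library, LDM in orange and PMM in blue, with the mean as a bar and the SD as a whisker (n = 3): MSTRG.9572.1 to MSTRG.9573.1 (left), MSTRG.9573.2 as a percent of both MSTRG.9573 models (middle) and MSTRG.9569.1 to MSTRG.9572.1 (right), all in FPKM. The muscles separate in the left panel, at 0.704 to 0.808 against 0.925 to 1.01, and overlap in the middle one; in the right panel LDM replicate 2 stands far above the rest at 0.204.

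Across the libraries each member was the closest match of the other. Likeness was measured as the SD over 6 libraries of the log2 ratio of 2 transcripts, which is 0 when they keep a fixed ratio. Compared were 494 transcripts above 0 FPKM in all 6 libraries with a mean of at least 1 FPKM in each muscle. For MSTRG.9572.1 the smallest SD was that to MSTRG.9573.1 (0.196), narrowly ahead of MSTRG.3247.2 on chromosome 12 (0.201). MSTRG.1915.1 on chromosome 1 came next (0.24), with a median of 0.78 over all 494. For MSTRG.9573.1 the first was MSTRG.9572.1, followed by MSTRG.3247.2 (0.22) and MSTRG.7532.1 on chromosome 15 (0.27), with a median of 0.77. The chromosome 1, 12 and 15 transcripts are intergenic, carry no gene name and had means of 1.71 to 3.07 FPKM, so the likeness is one of pattern and not of level. These are descriptions over 6 libraries, which also share depth and library effects. Both members were chosen by their level in PMM, which favours a shared difference between the muscles and so their likeness. Most of the 494 were far less abundant than the pair, and the counting error in their SDs was not set apart.

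The second isoform model of the neighbouring locus did not keep step with the first in PMM. MSTRG.9573.2 was listed at 36.9, 18.3 and 17.3 FPKM in LDM replicates 1, 2 and 3 and, in PMM, at 30.6, 30.4 and 30.0 FPKM. Its level was thus nearly the same in the 3 PMM libraries, while MSTRG.9573.1 ranged from 284 to 537 FPKM there. In LDM both models fell from replicate 1 to replicate 3. Over all 6 libraries, MSTRG.9573.2 ranked 7 of 494 in likeness to MSTRG.9573.1 (SD of the log2 ratio 0.32, against a median of 0.77). It made up 8.55%, 6.76% and 7.32% of the FPKM of both models in LDM replicates 1, 2 and 3 and 5.40%, 9.69% and 8.39% in PMM. The LDM range of this share lay inside the PMM range (exact permutation test, two-sided, p = 1). Both models cover mostly the same bases, so the division of reads between them is an estimate of the authors' quantification.

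Downstream in the block the levels were lower, and MSTRG.9569.1 was at 0.0549 to 0.204 times MSTRG.9572.1. MSTRG.9569.1 was listed at 20.5, 41.5 and 15.3 FPKM in LDM replicates 1, 2 and 3 and at 27.3, 17.3 and 20.6 FPKM in PMM. It was highest in LDM replicate 2, a library in which both members of the pair were below their overall level. Its ratio to MSTRG.9572.1 was 0.0740, 0.204 and 0.0898 in LDM and 0.0549, 0.0652 and 0.0625 in PMM. Every LDM ratio lay above every PMM ratio, but the ratio of MSTRG.9569.1 to MSTRG.9573.1 overlapped between the muscles. Both are descriptions, because the level in PMM chose MSTRG.9572.1 and MSTRG.9573.1, and a high level there lowers these ratios. MSTRG.9570.1, the shortest model, had 10.1, 0 and 3.05 FPKM in LDM, and in PMM it had 16.2, 0 and 6.01, so it was listed at 0 in replicate 2 of both muscles. The pair held 90.9 to 95.4% of the bases of the 5 models in each library.

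Within 100 kb of the pair the table held 4 other transcripts. With its partner counted, each member had 5 neighbours, against a median of 2 over all transcripts. The 4 were the 3 other models of the block and MSTRG.9565.1, a single-exon intergenic transcript of 3880 bases on the plus strand. It lay at chr2:5889543-5893422, and its near end was 47871 bases from MSTRG.9572.1. Tested were 3 of the 4, those with FPKM above 0 in each library of at least 1 muscle, and MSTRG.9570.1 was not. From limma, 0 of the 3 had an adjusted p under 0.05, where 0.174% of all 1721 transcripts did. At an unadjusted p under 0.05, 1 of the 3 passed, where 7.84% of all transcripts did. This was MSTRG.9565.1, listed at 0, 2.41 and 0 FPKM in LDM replicates 1, 2 and 3 and at 6.53, 1.07 and 3.28 FPKM in PMM. It passed the filter only through PMM, the muscle where it was higher. The filter thus favours its p-values, which are given as a description. Its difference (LDM minus PMM) on the log2 scale was -1.43 (standard error 0.51, unadjusted p = 0.0109 and adjusted p = 0.462 from limma), though LDM replicate 2 lay above PMM replicate 2. With the replicate number as a block its adjusted p was 0.0042 from limma, and without LDM replicate 1, LDM replicate 3 or PMM replicate 1 its unadjusted p rose to 0.0557, 0.112 and 0.105. Without LDM replicate 2, its only LDM library above 0, the log2 difference was -2.02 (unadjusted p = 0.00537 and adjusted p = 0.303 from limma), and without PMM replicate 2 it was -1.92 (unadjusted p = 0.00124 and adjusted p = 0.344 from limma).

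MSTRG.9573.2 and MSTRG.9569.1, the other tested neighbours, had log2 differences of -0.40 (standard error 0.34, adjusted p = 0.747 from limma) and 0.14 (standard error 0.37, adjusted p = 0.912 from limma). The sign of MSTRG.9569.1 was not stable, since its difference was -0.26 without LDM replicate 2 and -0.0064 without PMM replicate 2.

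The table also held transcripts that overlap named noncoding RNA genes, which include small nucleolar RNAs that guide the modification of ribosomal RNA, microRNA precursors and RNase P. There were 32 such transcripts in 19 genes, with a median of 1.59 FPKM over all libraries. The 3 most abundant were MSTRG.17109.1, MSTRG.14595.1 and MSTRG.17390.3, the transcripts above both members of the pair by mean FPKM in LDM. Of the 28 tested, 1 was higher in LDM at an adjusted p under 0.05 from limma and 0 were higher in PMM, beside 0.174% of all transcripts. The median log2 difference of the 28 was 0.04, beside -0.01 for all transcripts tested. The 1 was MSTRG.17390.3, which in LDM replicates 1, 2 and 3 was at 132, 311 and 519 FPKM and in PMM at 0, 94.2 and 0. It passed the filter only through LDM, the muscle where it was higher, so the filter favours this call. Its overlapping isoform model MSTRG.17390.5 had 0.653, 0 and 50.4 FPKM in LDM, while in PMM it had 372, 97.0 and 0. The call of MSTRG.17390.3 was lost without LDM replicate 2, LDM replicate 3, PMM replicate 1 or PMM replicate 3, each of which left 0 calls. MSTRG.14595.1, like both members of the pair, was abundant in every library, at 299, 222 and 493 FPKM in LDM replicates 1, 2 and 3 and, in PMM, at 244, 284 and 237.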

How the data were processed

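Longissimus dorsi muscle and psoas major muscle were sequenced in 6 libraries after removal of ribosomal RNA. The methods name Tophat and Cufflinks for alignment and assembly, although the transcript IDs begin with MSTRG. The authors computed the FPKM of each transcript and library, and the deposited read coverage per base is an unscaled signal. The deposited CPC and CNCI scores were used as given. The ratio of coverage to FPKM, a constant in each library, gave the gigabases behind the FPKM. Differences were tested on log2(FPKM + 1) with limma 3.58.1 (R 4.3.3) and its trend on the mean level (two-sided), and p-values were adjusted by Benjamini-Hochberg over 1721 transcripts, those with FPKM above 0 in each library of at least 1 muscle. The fit was tested on simulated data. Ratios were compared with exact permutation tests in Python 3.11.15 with scipy 1.17.1. Fragments were taken as coverage times length divided by 300 bases. P-values measure only the spread between these libraries.

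After the mean of each muscle was removed, LDM and PMM libraries with equal replicate numbers had correlations of 0.239, 0.123 and 0.168, and those with unequal numbers -0.179 to 0.0423. The replicate numbers were therefore treated as pairs in the alternatives only. The main limma fit and the exact permutation tests were unpaired. The pairing by number comes from the data and not from the labels. The paper took both muscles from the same group of pigs, but does not say which pig gave each library. The members and lists were chosen with earlier results of these data known. Named were the pair, all transcripts within 100 kb, the 3 next by mean FPKM in each muscle, the 3 most like each member, and 3 of the noncoding RNA genes. Alternatives were the pseudocount (0.1 or 0.01), no filter, median-of-ratios scaling, a fit with no trend, the replicate block, other sums for the shares, other forms of the ratio and leaving out each library. The scaling to the sum without MSTRG.17109.1, the sum of both MSTRG.9573 models, the share without MSTRG.17109.1 and the set of adjacent pairs were added after the data were seen. No sequence is shown, and mRNAs were not analysed here.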

Additional observations from a re-analysis of the deposited data

How the results depend on the processing

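The log2 difference (LDM minus PMM) kept its sign under all 13 alternatives for MSTRG.9572.1 (-0.93 to -0.46) and for MSTRG.9573.1 (-0.64 to -0.13), and that of the ratio under all 10 (-0.37 to -0.27). Some alternatives could not change these values. For the members they were no filter, no trend and the replicate block, and for the ratio the replicate block, read coverage and bases. The level in PMM chose the pair, so the kept sign is a description. Leaving out 1 library each gave -0.93 to -0.48, -0.64 to -0.13 and -0.37 to -0.27. With the replicate block these differences were -0.72, -0.40 and -0.33, the values without it, and scaled to an equal sum of FPKM without MSTRG.17109.1 both members were at -0.79 and -0.47. The share of the pair in PMM moved from 13.8% to 19.5% over transcripts above 0 in all 6 libraries, where the sum holds fewer transcripts. With 1 library of the muscle left out it was 6.02 to 10.5% in LDM and 11.8 to 15.7% in PMM.

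Calls over all transcripts moved more, and the cause was not tested. At an adjusted p under 0.05 from limma they were 3, with 78 at pseudocount 0.01, 17 with no filter, 48 with the replicate block and 2 to 5 without 1 library, 5 of these without PMM replicate 1 or PMM replicate 2. At an unadjusted p under 0.05 and a log2 difference of at least 1 they were 65, with 164 at pseudocount 0.1, 160 at pseudocount 0.01 and 83 to 146 without 1 library (106, 105 and 146 without LDM replicates 1, 2 and 3, and 98 without PMM replicate 3). Of these 65, 35.4% were higher in LDM, against 59.2% of 49 after median-of-ratios scaling. Within 100 kb of the pair the block called 1 transcript in place of 0, MSTRG.9565.1, which passed the filter only through PMM. Without 1 library the count was 0 in each case. Among the named noncoding RNA genes the call of 1 became 0 under each of 4 separate settings, which were pseudocount 0.1, pseudocount 0.01, median-of-ratios scaling, and scaling to the sum without MSTRG.17109.1. It became 3 with no filter or with the replicate block, and 0 to 1 without 1 library. With 3 libraries per muscle, the exact tests cannot give a p below 0.1.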
